A study of Homo sapiens with 12 samples.

Results

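MicroRNAs of exosomes were compared with those of whole cells after Ang, in 6 of the 12 small RNA libraries of the series: 3 of exosomes named Ang and 3 of whole cells named Ang. Both groups come from AC16, an established human cardiomyocyte-derived cell line, and both carry the same treatment, so they differ by compartment. The file headers of these libraries read AngII; the labels do not spell the agent out and state neither its dose nor its duration. The other 2 groups are cells and exosomes named Con, again with 3 libraries each, and enter only where a difference under Ang is set against the same difference in Con. The stated aim of the series is to find miRNAs of exosomes from hypertrophic cardiomyocytes and the proteins that bind them, and the libraries of cells and exosomes allow the contents of the 2 compartments to be set side by side. Cell RNA was taken with the miRNeasy Micro kit and exosome RNA with the exoRNeasy Maxi kit, per the labels' protocols, so compartment and kit cannot be told apart in any value below. Nothing in the labels ties the numbered replicates to separate cultures, and p-values therefore reflect only how far these samples scatter, which may be technical.

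Exosomes are small vesicles that cells release when compartments holding internal vesicles fuse with the surface membrane, and they carry proteins and short RNAs. A miRNA is cut from a hairpin precursor whose arms give a 5p and a 3p strand. As a rule one strand, the guide, is loaded into an Argonaute protein and finds its targets through the seed, bases 2 to 8, while the other strand is degraded. Some miRNAs, the mirtrons, are spliced out as short introns and skip the first cutting enzyme. Proteins such as hnRNPA2B1 and SYNCRIP have been described as sorting miRNAs into exosomes by short sequence motifs.

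The mature sequences of names that led the exosome libraries or were most raised there are given first, because their base make-up is taken up again below. They are from RefSeq (GRCh38.p14), 5′ to 3′, with the seed in capitals.
miR-552-3p: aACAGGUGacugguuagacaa
miR-3972: cUGCCAGCcccguuccagggca
miR-3944-5p: uGUGCAGCaggccaaccgaga
miR-671-3p: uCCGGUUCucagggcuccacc
miR-5008-3p: cCUGUGCUcccagggccucgc
miR-3907: aGGUGCUCcaggcuggcucaca
miR-3153: gGGGAAAGcgaguagggacauuu
miR-1237-5p: cGGGGGCGgggccgaagcgcg
miR-4638-3p: cCUGGACAccgcucagccggccg
miR-6126: gUGAAGGCccggcggaga
miR-4497: cUCCGGGAcggcugggc
miR-7843-5p: gAGGGCAGagccagcuuccuga

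Some of the names that led the cell libraries or were most reduced in exosomes are shown for contrast, in the same form. Among the cell leaders not printed, G and C make up 70% of miR-1231, 59.1% of miR-6793-5p and 38.1% of miR-510-3p.
let-7a-5p: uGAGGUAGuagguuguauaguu
miR-16-5p: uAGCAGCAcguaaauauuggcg
miR-21-5p: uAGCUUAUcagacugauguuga
miR-125b-5p: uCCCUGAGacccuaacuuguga
miR-29a-3p: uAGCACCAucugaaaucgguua
miR-26a-2-3p: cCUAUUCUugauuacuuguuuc
miR-12135: uAAAGGUUuguuuguaaa
miR-759: gCAGAGUGcaaacaauuuugac
miR-3684: uUAGACCUaguacacguccuu
miR-5584-3p: uAGUUCUUcccuuugcccaauu
miR-5582-3p: uAAAACUUuaagugugccuagg
miR-802: cAGUAACAaagauucauccuugu
miR-19a-3p: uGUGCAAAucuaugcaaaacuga

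The counts are of unique molecular identifiers (UMIs), tags that mark each captured molecule once. Cell libraries held 413513 to 512840 UMIs and exosome libraries 697049 to 1022550. Of 2656 miRNA names in the cell files, 2588 to 2623 had a UMI in a cell library and 2145 to 2257 in an exosome library. The 76 names absent from the exosome files were counted as 0 there; 6 of them could be tested, and none had more than 19 UMIs in a cell library. Levels are given as CPM, counts per 1000000 UMIs of the library. The 3 UMIs taken as the limit that a count of 0 allows correspond to 2.93 to 7.25 CPM, for counting error only. Within the cell group, replicate 2 stood apart: a chi-square over names with at least 20 UMIs gave 5.0 and 5.44 per degree of freedom for the pairs with it and 2.25 for the pair without it. In the exosome group replicate 2 also gave the higher values, 3.93 and 3.20 for the pairs with it and 2.18 for the pair without it.

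Cell replicate 2 also held more of several blood and endothelial miRNAs, of which miR-142-3p, miR-451a and miR-486-5p, like miR-1-3p, are named after their values were seen. miR-126-3p, the endothelial strand from EGFL7, stood at 302, 4007 and 318 CPM in cell replicates 1 to 3 and at 76.0, 205 and 78.2 CPM in the exosome replicates. miR-142-3p, of white blood cells, stood at 99.9, 2041 and 105 CPM in cells and at 2.87, 19.8 and 14.7 CPM in exosomes. miR-486-5p, of red blood cells, stood at 30.6, 929 and 37.0 CPM in cells and at 15.8, 186 and 93.9 CPM in exosomes. For miR-126-3p, miR-142-3p and miR-486-5p, replicate 2 thus held the highest value among the exosome libraries as well. The 13 blood names summed to 3.63% to 5.36% of UMIs in cells and 0.361% to 0.626% in exosomes, most of it miR-16-5p, which many cell types make, and miR-451a was at 0 in exosome replicate 1. Muscle miRNAs, the markers of a cardiomyocyte, were scarce: all 12 names summed to 0.0402% to 0.0452% of cell UMIs, and miR-1-3p, the main muscle miRNA, had 2, 3 and 3 UMIs in the cell libraries. How far the blood names bear on other values was not tested, and without cell replicate 2 the main comparison called 1417 names, against 1355 with it.

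The make-up of the exosome libraries differed from that of the cells. The 10 leading names of exosomes took 45.5% ± 0.21 of exosome UMIs (SD, n = 3), and the 10 leading names of cells took 23% ± 0.32 of cell UMIs. It took 14.3 ± 0.58 names on average to reach 50% of the UMIs in an exosome library and 60.3 ± 0.58 in a cell library. Names ending in 5p held 20.4% ± 0.21 of exosome and 46.2% ± 0.47 of cell UMIs, while names ending in 3p held 40.4% ± 0.26 and 29.7% ± 0.083. Names without an arm held 39.3% ± 0.38 and 24.1% ± 0.51. The groups did not overlap in any of these shares, and the two-sided exact permutation test gave p = 0.1 for each, the smallest that 3 against 3 libraries allow. miR-552-3p and miR-3972 weighed on them: with these 2 names left out of the totals, the 8 remaining leading names of exosomes took 23.1% and the 5p names 28.7% of exosome UMIs. When the 10 leading names were chosen again without them, an alternative added after the data were seen, they took 26.7% ± 0.25 of exosome and 23.2% ± 0.31 of cell UMIs.

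Because the make-up differed this much, each difference is given on 2 scales. Library totals compare a name's share of all UMIs. TMM, which aligns the bulk of the names, raises the exosome values by 1.88 log2 units relative to that, about 3.68-fold. With miR-552-3p and miR-3972 left out of the totals, the shift from TMM to totals was still −1.4 log2 units. On both scales a log2 difference is exosomes minus cells, and a name was called at an adjusted p of at most 0.05 in edgeR's quasi-likelihood test. Of 1627 names with enough counts to test, TMM called 1355 (83.3%): 621 higher (38.2%) and 734 lower (45.1%) in exosomes. Library totals called 296 higher (18.2%) and 1173 lower (72.1%). All 296 names that were higher by totals were higher by TMM (18.2% of tested names), all 734 that were lower by TMM were lower by totals (45.1%), and 169 were called in opposite directions. The text below calls a name higher or lower only where both scales do so. At least 10-fold under both were 38 higher and 149 lower names. By library totals, the lowest CPM of one group lay above the highest of the other for 1480 names (91%). Of these, 302 were higher and 1178 lower in exosomes, a split that carries the shift between the scales.

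**Figure D1:**
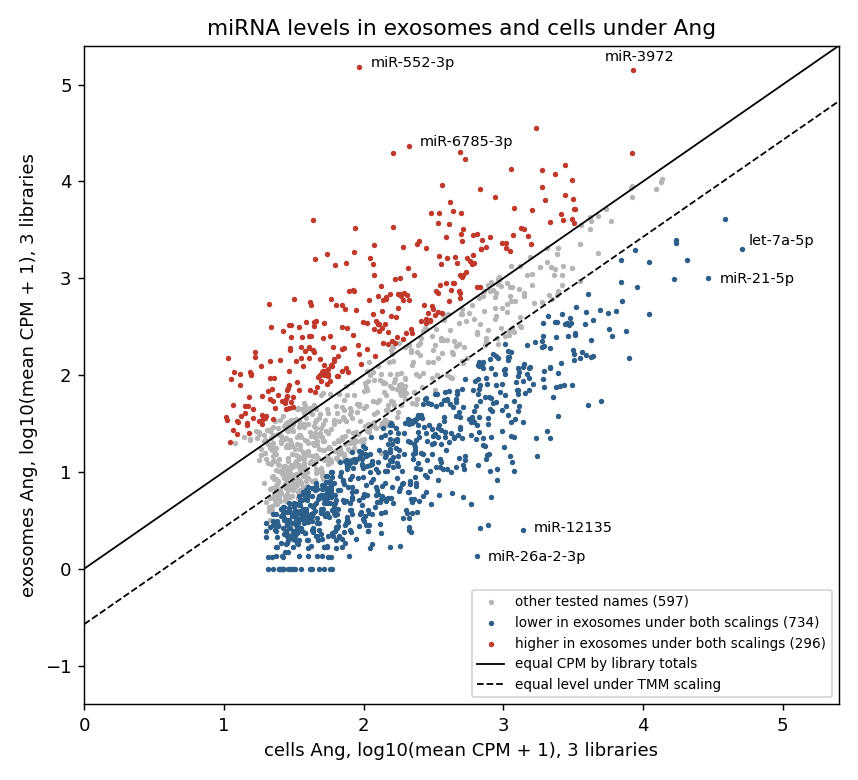
Mean level of each of 1627 tested names, as log10(CPM + 1) over 3 libraries, in cells Ang (horizontal) and exosomes Ang (vertical). Red points are the 296 names higher in exosomes under both scalings and blue points the 734 lower under both; the lines mark equal levels by library totals (solid) and under TMM (dashed), and the grey points between them change side with the scaling.

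miR-552-3p was the leading name of the exosomes and had the highest difference of all. It lies outside coding and long non-coding genes of the same strand, at chr1:34669614-34669634 on the minus strand (GRCh38). It stood at 102, 96.7 and 78.0 CPM in the cell libraries and at 145242, 155654 and 150630.3 CPM in the exosome libraries. It was thus a minor name in every cell library and led every exosome library but 1, where miR-3972 was just above it. The log2 difference was 12.56 ± 0.18 (SE) under TMM and 10.67 by totals, with adjusted p of 1.5e-18 and 1.6e-16.

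miR-3972, from an intron of PADI3 (chr1:17277948-17277969, plus strand), was the next most abundant. Its values were 8876, 8213 and 8324 CPM in cells and 146272, 134456 and 141112 CPM in exosomes. It was thus abundant in both compartments, and the difference was 5.94 ± 0.13 log2 units under TMM and 4.05 by totals. miR-3944-5p, from an intron of ECHS1, which encodes an enzyme of fatty acid breakdown, stood at 1635, 1949 and 1540.4 CPM in cells and 36964, 33814 and 35098 CPM in exosomes.

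A further group of names was low in cells and high in exosomes. miR-5008-3p, inside a WNT9A intron (chr1:227941610-227941630, minus strand), went from 153, 152 and 177 CPM in cells to 19023, 20114 and 20182 CPM in exosomes, 8.82 ± 0.12 log2 units under TMM and 6.94 by totals. miR-6785-3p went from 230.4, 196 and 205 CPM to 25039.8, 21733 and 23641 CPM, 8.69 ± 0.13 under TMM and 6.8 by totals. miR-671-3p, inside a coding exon of CHPF2, an enzyme of chondroitin synthesis (chr7:151238488-151238508, plus strand), stood at 430.2, 447 and 597 CPM in cells and 20700.1, 19862 and 20149.6 CPM in exosomes. In all 3 the exosome libraries lay within a narrow band far above the cells. miR-4638-3p, with cell values of 38.7 to 44.9 CPM and exosome values of 3869 to 4164 CPM, differed by 8.42 under TMM and 6.53 by totals. miR-3907, in an intron of CRYGN, a lens crystallin gene, stood at 495, 539 and 562 CPM against 14944, 18546 and 17343 CPM.

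The remaining names among the 10 highest were miR-6126, miR-4497, miR-7843-5p and miR-4433a-5p. Their log2 differences under TMM were 7.18, 7.06, 6.93 and 6.63, and by totals 5.29, 5.18, 5.04 and 4.76. miR-7843-5p lies in an intron of RGS6, which encodes a brake on G protein signalling. The other leading names of exosomes were miR-668-3p, miR-3153 (an intron of CKS2, a cell cycle gene) and miR-1237-5p, with differences of 3.15, 4.31 and 5.45 under TMM and 1.26, 2.42 and 3.56 by totals.

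**Figure D2:**
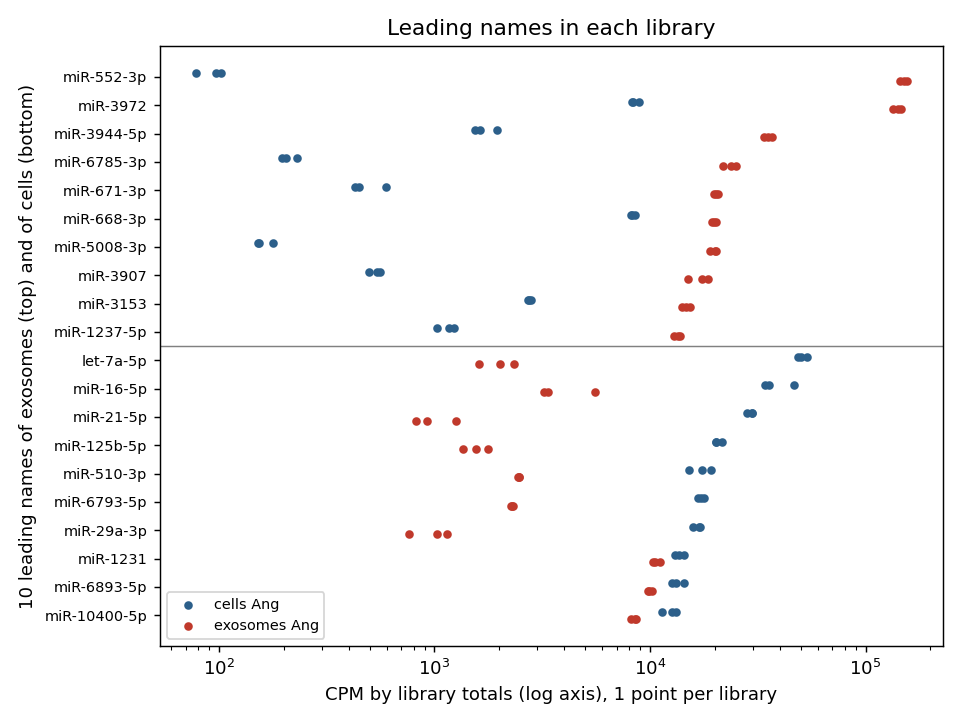
CPM by library totals, on a log axis, of the 10 leading names of exosomes (above the line) and of cells (below it), with 1 point per library in cells Ang (blue) and exosomes Ang (red). miR-552-3p spans 78.0 to 102 CPM in cells and 145242 to 155654 in exosomes, while miR-1231, miR-6893-5p and miR-10400-5p lie close together in both.

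The leading names of the cell libraries included well-known guide strands, and 7 of the 10 leading names were lower in exosomes on both scales. Over all tested names 45.1% were lower on both. The 10 were chosen for high levels in these same cell libraries, which favours such a count. let-7a-5p, which holds back growth genes, stood at 50366, 48821 and 53795 CPM in cells and at 2006, 2336 and 1616 CPM in exosomes, a difference of −2.79 ± 0.12 log2 units under TMM and −4.68 by totals. miR-21-5p, a miRNA of growth and fibrosis that lies in an exon of VMP1, stood at 29869, 28122 and 29797 CPM in cells and at 924, 1264 and 821 CPM in exosomes, −2.98 ± 0.12 and −4.87. The groups were far apart for both names. miR-16-5p, a brake on the cell cycle, was at 34195, 46618 and 35740.2 CPM against 3239, 5572 and 3356 CPM, with −1.37 ± 0.16 under TMM; its highest cell value was in replicate 2. miR-125b-5p, miR-29a-3p, miR-6793-5p and miR-510-3p differed by −1.84, −2.20, −1.02 and −0.92 under TMM and by −3.73, −4.09, −2.91 and −2.81 by totals.

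The other 3 leading names of cells turned with the scaling. miR-1231, a mirtron name in an intron of NAV1, stood at 13659, 13061 and 14314 CPM in cells and at 11169, 10312 and 10526 CPM in exosomes. Its share of UMIs was thus lower in exosomes, with a difference of −0.36 (adjusted p = 0.00041), while TMM put it higher, at 1.53. miR-6893-5p gave −0.43 by totals and 1.46 under TMM, and miR-10400-5p −0.55 and 1.34. miR-4800-3p and miR-4771, at 2.0 and 1.93 under TMM, had no call by totals (0.11 and 0.04). No direction can be given for these names.

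At the low end, several names that were common in cells were all but missing from exosomes. miR-26a-2-3p (chr12:57824620-57824641, minus strand) is the passenger strand of a hairpin in an intron of CTDSP2. It had 343, 255 and 315 UMIs in the cell libraries and 0, 1 and 0 in the exosome libraries. Summed, that is 913 against 1, a ratio of 1725 by totals with a 95% counting interval of 309 to 68210.5, and of 466 (83.5 to 18437) after TMM. miR-12135, in an intron of NEO1, a receptor of guidance cues, had 697, 494 and 777 UMIs in cells and 1, 3 and 0 in exosomes, a ratio of 929.6 (362 to 3415) by totals. miR-759 had 355, 257 and 352 UMIs in cells against 2, 2 and 0, a ratio of 455 (177 to 1675). These intervals cover counting error only. miR-3684, in an intron of METAP1, had 401, 323 and 384 UMIs in cells and 1, 3 and 1 in exosomes.

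The further names among the 10 lowest were miR-5584-3p, miR-5582-3p, miR-802, miR-6529-3p, miR-19a-3p and miR-597-5p, at −5.60, −5.36, −5.20, −5.19, −5.17 and −5.13 log2 units under TMM. By totals these were −7.46, −7.22, −7.00, −7.07, −6.98 and −7.01. They include miR-19a-3p, the main growth-promoting strand of the miR-17-92 cluster, with 114, 69 and 119 UMIs in cells and 1, 2 and 1 in exosomes. miR-19a-3p and miR-19b-3p differ by few bases, as do let-7a, let-7c, let-7e and let-7f, miR-103a and miR-107, miR-29a and miR-29c, and miR-30a and miR-30e, so reads could be split between them by the counting. A rule of at least 100 UMIs in one group and at most 3 in the other found 8 names, all present in cells. Of these, 7 are the usually rarer arms of well-known hairpins: miR-26a-2-3p, miR-100-3p, miR-146a-3p, miR-181b-2-3p, miR-24-1-5p, miR-24-2-5p and miR-374a-3p. miR-6502-5p, from the IRAK3 transcript, was the other one. No name with 100 or more UMIs in exosomes had 3 or fewer in cells.

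Next the names were grouped into families and lists. Over all 1627 tested names the median log2 difference was −0.31 under TMM and −2.19 by totals, with 18.2% higher and 45.1% lower under both, and each list is read beside those values. All 9 let-7 guide strands were lower in exosomes, with a median of −2.45 under TMM and −4.34 by totals, and together they went from 7.95% ± 0.32 of cell UMIs to 0.385% ± 0.065 of exosome UMIs. let-7f-5p stood at 6353, 9673 and 6751 CPM in cells and at 247, 332 and 266 CPM in exosomes. let-7c-5p was the weakest of them, at −0.95 (adjusted p = 0.025), and its call did not hold. Under TMM it was lost without cell replicate 2 (−0.13) and without exosome replicate 1, 2 or 3 (adjusted p of 0.053 to 0.20), as well as in DESeq2, limma-voom and a fit over all 12 libraries.

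Families that act on growth and the cell cycle went the same way. Of the miR-17-92 cluster and its paralogs, 17 of 28 names were tested and 16 were lower, with miR-20a-5p at 809, 774 and 792 CPM in cells and 10, 20.9 and 11.7 CPM in exosomes. All 7 tested names of the miR-15 and miR-16 family were lower, with miR-15b-5p at 3109, 3081 and 3446 CPM against 139, 156 and 134 CPM. All 4 names of miR-221 and miR-222, which act on cell cycle inhibitors, were lower. Of these families none had a member higher in exosomes. miR-221-3p went from 7233, 6399 and 7521 CPM to 574, 723 and 451 CPM. Of the X-linked cluster of miR-424 and miR-503, 7 of 9 were lower.

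In the families of miR-29, miR-30 and miR-23, miR-27 and miR-24 most tested names were lower as well, while the miR-143 and miR-145 pair lay near the median of all names. Of the miR-29 family, which targets collagens, 5 of 7 were lower, and miR-29b-3p stood at 2775, 2580.3 and 2318 CPM in cells and 78.9, 90.9 and 59.7 CPM in exosomes. The exception by TMM was miR-29c-5p, the passenger strand, at 2.35 under TMM and 0.48 by totals (adjusted p = 0.15). Of the miR-30 family, common in heart, 8 of 9 were lower, and miR-30a-5p went from 3231, 3091 and 3282 CPM to 185, 189 and 114 CPM. In the clusters of miR-23, miR-27 and miR-24 10 of 11 were lower and 1, miR-23a-5p, was higher: 44.9, 38.7 and 27.3 CPM in cells against 176, 179 and 177 CPM in exosomes, 4.15 ± 0.18 under TMM and 2.27 by totals. Its groups did not overlap. miR-27a-3p of the same clusters was lower, at −2.14 and −4.02. Of the smooth muscle pair miR-143 and miR-145, 1 of 4 was lower (miR-143-3p, −1.27 and −3.16), and their median of −0.34 under TMM was close to the −0.31 of all names.

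The miR-125, miR-99, miR-100 and miR-10 families had 9 of 13 lower and none higher. The 3p strands miR-125b-1-3p and miR-125a-3p were 1.61 and 1.43 under TMM but −0.28 and −0.46 by totals, so they had no common direction, whereas miR-125b-5p was lower on both. miR-181c-5p did likewise, at 1.83 under TMM and −0.05 by totals, while miR-181a-3p and miR-181c-3p were lower, at −2.90 and −2.95 under TMM, and 6 of the 8 tested miR-181 names were lower. In the group of miR-199 and miR-214, raised in failing hearts, 4 of 5 were lower, miR-199a-3p at 2756, 3006 and 3069 CPM against 301, 363 and 314 CPM. miR-214-3p was 1.66 under TMM and −0.23 by totals.

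Cardiac hypertrophy is the growth of heart muscle cells that AngII is widely used to induce. Of a list of arms of miRNAs described as promoting it, 30 of 38 were tested, 25 were lower and 1, miR-23a-5p, was higher. In cells miR-23a-5p was the rarer arm of its hairpin. miR-21-5p is in this list, and so is miR-212-5p, which stood at 1592, 1734 and 1279 CPM in cells and 64.6, 75.2 and 65.5 CPM in exosomes. Of those described as opposing hypertrophy, 28 of 39 were tested, 21 were lower and none higher. miR-101-5p went from 1723, 1913 and 1509 CPM to 21.5, 19.8 and 23.5 CPM, −4.41 ± 0.15 under TMM. The medians of both lists, −1.68 and −1.95 under TMM, lay below that of all names, and so did that of the inflammation and hypoxia list (12 of 14 lower), at −1.63. miR-31-5p of that list stood at 4198, 4070.0 and 4383 CPM in cells against 154, 173 and 135 CPM.

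Names often described in exosomes did not stand higher here as a list: 22 of 31 tested were lower and 2 were higher. Under TMM alone 3 were higher, and 6 without cell replicate 2. Those higher on both scales were miR-1246 and miR-1290, both names that overlap small nuclear RNA fragments. miR-1246 stood at 318, 331 and 363 CPM in cells and 481, 463 and 403 CPM in exosomes (2.30 under TMM, 0.41 by totals, adjusted p = 0.0032), and miR-1290 at 75.4, 99.2 and 97.5 against 198, 234 and 185 CPM. Of the names used as references for qPCR, 19 of 22 were lower and none higher, miR-103a-3p at 4516, 4196 and 4440.0 CPM in cells and 151, 194 and 123 CPM in exosomes. Of the 12 tested names from small nuclear, transfer or mitochondrial RNA fragments, 9 were lower and 2 higher, again miR-1246 and miR-1290.

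Markers of other cell types were counted in the same way. Of blood names 4 of 6 tested were lower and none higher, of neuronal names 5 of 8, of liver names 2 of 5 and of embryonic stem cell names 2 of 4. The lower blood names include miR-16-5p, which many cell types make, and cell replicate 2 held more of several blood names. Of epithelial names 2 of 7 were lower and 1, miR-205-3p, was higher at low counts (10.2, 4.84 and 19.5 CPM in cells, 37.3, 32.4 and 27.4 CPM in exosomes). Both endothelial strands were lower with all libraries, but miR-126-3p turned from −1.75 (adjusted p = 0.033) to 0.55 under TMM without cell replicate 2, and it was not called without exosome replicate 1 or 3 or by limma-voom. Of muscle names 3 of 5 were lower, all at few counts: miR-133a-5p had 9, 11 and 16 UMIs in cells and 0 in each exosome library. Each of these lists was a small part of the libraries: the blood names held 0.458% of exosome UMIs on average, most of it miR-16-5p, and the other lists 0.102% or less.

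Lists of another kind were higher. Of GC-rich names that resemble ribosomal RNA fragments, all 27 were tested, 18 were higher and 2 lower, with a median of 3.14 under TMM and 1.25 by totals. miR-4516 stood at 707, 595 and 735 CPM in cells and 8415, 8265 and 8636 CPM in exosomes, 5.52 ± 0.11 and 3.63 log2 units. miR-663b stood at 1931, 1809 and 1969 CPM against 8816, 8776 and 8556 CPM. The list as a whole went from 3.13% ± 0.21 of cell to 4.48% ± 0.029 of exosome UMIs, and it and the classic mirtrons were the 2 lists with a median above 0 on both scales. Of classic mirtrons, 10 of 20 were higher and 3 lower, and their medians were 1.97 under TMM and 0.08 by totals. miR-1237-5p, from an intron of RPS6KA4, stood at 1229, 1166 and 1026 CPM in cells and 12950.3, 13458 and 13816 CPM in exosomes, and its partner miR-1237-3p was higher too (4.88 and 3.0).

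The long series miR-6715 to miR-6895, mostly from short introns, was higher and lower in like numbers. Of its 3p strands 29 of 126 were higher and 29 lower, and of its 5p strands 35 of 119 were higher and 32 lower. miR-6836-3p went from 724, 665 and 558 CPM in cells to 2852, 2896 and 2822 CPM, and miR-6894-5p from 228, 227 and 169.6 to 1178, 1384 and 1307 CPM. Names from small nucleolar RNA genes were mixed as well, with 4 of 12 higher and 5 lower. Of these miR-1292-3p stood at 2408, 2341 and 2246 CPM in cells and 12458, 11761 and 11947 CPM in exosomes.

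The large clusters differed from each other. Of the imprinted chromosome 14 cluster, 78 of 95 names were tested, 52 were lower and 7 higher. Its summed share of UMIs was 5.12% ± 0.20 in cells and 4.04% ± 0.051 in exosomes, and its abundant members miR-668-3p and miR-370-3p were among the higher names. miR-370-3p stood at 2756, 2771 and 2710.4 CPM in cells and 7408, 6839 and 7443 CPM in exosomes. Of the miR-548 family, from a transposon, 15 of 17 tested were lower and none higher, miR-548as-5p going from 2809, 2517 and 2818 to 73.2, 78.3 and 83.1 CPM. Of the primate chromosome 19 cluster 9 of 17 were lower and 2 higher, and of the X-linked miR-506 to miR-514 cluster 6 of 11 were lower and none higher. miR-506-3p of the latter was at −3.46 under TMM, while miR-509-3-5p was at 1.29 under TMM and −0.60 by totals. Of the 6 miR-320 names, made without Drosha, 1 was lower.

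**Figure D3:**
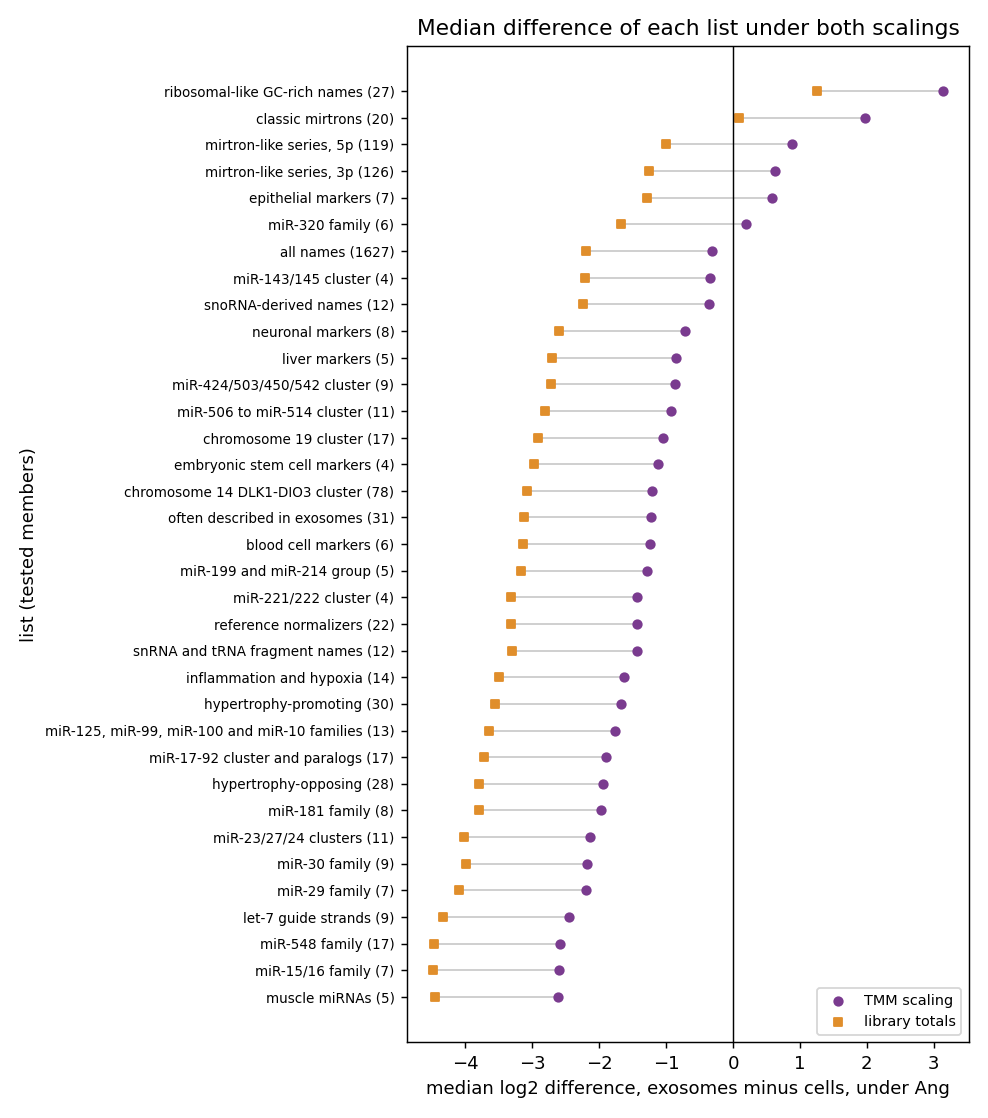
Median log2 difference, exosomes minus cells, of each list with at least 4 tested members, under TMM scaling (circles) and library totals (squares), with the number tested in brackets. The ribosomal-like GC-rich names lie at 3.14 and 1.25 and all tested names at −0.31 and −2.19, while the let-7 guide strands lie at −2.45 and −4.34.

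The ratio of the 2 arms of a hairpin within a library needs no scaling between libraries, and it was tested with limma on log2(5p/3p) with 0.5 added to each count. Of 863 hairpin names with both arms listed, 341 had a mean of at least 10 UMIs in each arm over the 6 libraries. An arm common in a single compartment could thus pass, which favours wide differences. Of these, 140 (41.1%) were called toward 3p and 117 (34.3%) toward 5p in exosomes, with a median over all 341 of −0.15. For 99 hairpins the leading arm was not the same in the 2 compartments, 90 of them called: 47 went from 5p in cells to 3p in exosomes and 43 the other way. So strand use differed for many hairpins without a common direction.

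The widest arm change was in miR-552, whose 5p arm met the minimum through the cell libraries. Its 5p and 3p arms had 24 and 50, 11 and 40, and 25 and 40 UMIs in the cell libraries, and 1 and 101241, 3 and 149040, and 0 and 154027 in the exosome libraries. The 3p arm thus made up nearly all of its exosome UMIs, and the difference in log2(5p/3p) was −15.38 ± 0.75, a size that depends on the added 0.5. miR-6785 had 882 5p and 299 3p UMIs over the cell libraries and 86 and 62438 over the exosome libraries (−11.08 ± 0.22). miR-597 had 2490 and 335 in cells and 36 and 6046 in exosomes (−10.25 ± 0.28), so its 5p strand was among the lowest names while its 3p strand became common. miR-4738 and miR-331 followed with −7.72 and −7.35. Toward 5p the widest were miR-4724 (8.23 ± 0.29), miR-6529 (7.67), miR-4433a (7.47), miR-10397 (7.01) and miR-6749 (6.87). miR-4724 had 385 and 112 UMIs over the cell libraries and 5454 and 4 over the exosome libraries, so its 3p arm met the minimum through cells. All 10 had adjusted p of 7.2e-06 or lower.

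The arms of some of these hairpins are shown to let the strands be compared, with the seed in capitals.
miR-552-5p: gUUUAACCuuuugccuguugg
miR-331-5p: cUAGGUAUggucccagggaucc
miR-331-3p: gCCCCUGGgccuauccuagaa
miR-4738-5p: aCCAGCGCguuuucaguuucau
miR-4738-3p: uGAAACUGgagcgccuggagga
miR-4724-5p: aACUGAACcaggagugagcuucg
miR-4724-3p: gUACCUUCugguucagcuagu
miR-6529-5p: gAGAGAUCagaggcgcagagug
miR-6529-3p: cCUGUGCCuuuuacuucuuuaa
miR-10397-5p: uCCUUGACcugaugcuguaggg
miR-10397-3p: cAUAGAUCucgucgcuuacuggga

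Among hairpins of the families above, several changed their leading arm; these were picked after their values were seen. miR-125a had 7947 5p and 3448 3p UMIs in cells and 1161 and 4746 in exosomes (−3.25 ± 0.21, adjusted p = 8.9e-06). miR-181c had 717 and 1534 in cells and 1310 and 101 in exosomes (4.76 ± 0.22), and miR-369 of the chromosome 14 cluster had 884 and 1735 against 3883 and 93 (6.35 ± 0.22). miR-23a kept its 3p lead, but 5p rose from 52 beside 4641 to 475 beside 721 (5.85 ± 0.30). For let-7a and miR-21 no change was called: let-7a had 72481 and 208 UMIs in cells and 5287 and 11 in exosomes (0.30 ± 0.23, adjusted p = 0.26), and miR-21 gave 1.37 ± 0.69 (adjusted p = 0.10).

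**Figure D4:**
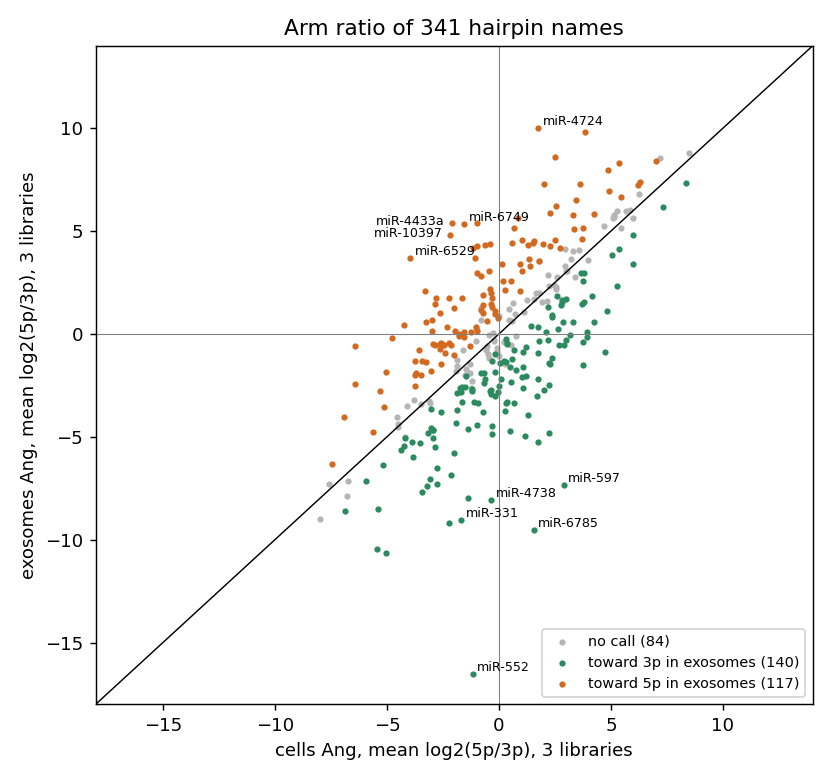
Mean log2(5p/3p) of 341 hairpin names in cells Ang (horizontal) and exosomes Ang (vertical), 3 libraries each, with 0.5 added to each count and a line of equal ratio. The 140 green points were called toward 3p and the 117 orange points toward 5p in exosomes, and miR-552 lies lowest with a difference of −15.38.

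The base make-up of the mature sequences followed the differences, as a look back at the printed sequences shows: the exosome-high names are mostly rich in G and C, with miR-552-3p as an exception. RefSeq sequences were matched by name to 1461 of the 1627 tested names. The median GC content was 65.2% among the 264 higher names with a sequence, 47.6% among the 655 lower ones and 54.5% among all. Below 35% GC, 0 of 93 names were higher and 86 lower, from 45% to under 55%, 38 of 425 were higher and 225 lower, and from 65% up, 140 of 351 were higher and 45 lower. Across these names Spearman's rho of GC with the TMM difference was 0.58, given as a description, since names share libraries and are not independent. Median length was 22 bases in each class.

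Weighted by UMIs, the GC content was 63.7% ± 0.24 in exosomes and 54.3% ± 0.44 in cells, and 66.8% and 54.1% without miR-552-3p and miR-3972. The arm ratio gave a count free of scaling, added after the data were seen. Of 223 called hairpins with both sequences, 209 had arms of unequal GC, and in 143 of these (68.4%) the shift in exosomes was toward the arm with more GC. Where the arms differed by at least 10 percentage points it was 55 of 71 (77.5%). Between names, lower exosome levels thus went with low GC. Between arms of a hairpin, the ratio gives a shift toward more GC but not which arm changed. The arms also overlap with the names counted above. The kit differed with the compartment, and the 2 cannot be told apart in these values.

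**Figure D5:**
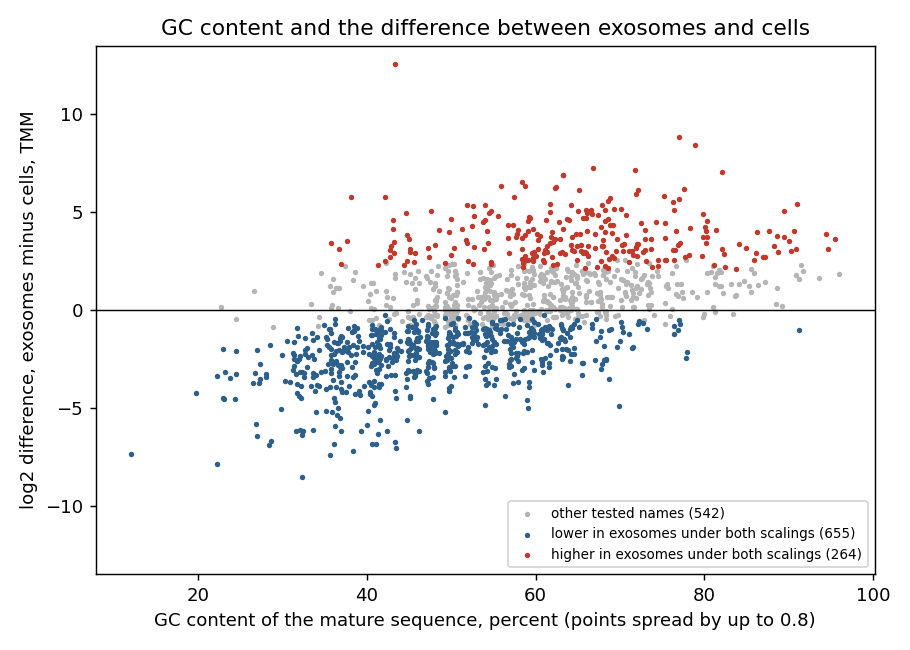
GC content of the mature sequence (percent) and log2 difference between exosomes and cells under TMM for 1461 tested names with a sequence. Red points, higher under both scalings, have a median GC content of 65.2% and blue points, lower under both, of 47.6%; miR-552-3p is the topmost point.

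Motifs were counted in the RNA strand as printed, with no reverse strand, and can overlap each other. GGAG and CCCU, described for hnRNPA2B1, were in 24.6% and 18.6% of the higher names, 10.7% and 7.94% of the lower names and 17.9% and 13.8% of all tested names; over all 2370 human mature sequences of the table they were in 15.7% and 11.9%. GGCU, described for SYNCRIP, was in 19.3% of higher and 9.92% of lower names (12.6% of all mature sequences), and GGGG, which has no such role on record here, in 24.2% and 8.70% (11.7%). CAUG was in 6.06% and 8.85% (7.72%), and AAUG in 2.27% and 7.94% (5.82%). Since GC-rich motifs follow GC content, the shares were also taken within 55% to under 65% GC, a range chosen after the data were seen. There GGAG was in 22.9% of 70 higher and 19% of 121 lower names, GGCU in 18.6% and 20.7%, GGGG in 17.1% and 19%, and CCCU in 28.6% and 7.44%. Over all 360 names of that range GGAG was in 24.2%, GGCU in 19.2%, GGGG in 18.3% and CCCU in 19.7%, and no difference between these shares was tested. The share of GGAG among higher names thus lay below that of all names of the range, and the share of CCCU above it.

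Names that share a seed share predicted targets, and shared seeds went together in several cases. The let-7 seed GAGGUAG was held by 10 tested names, of which 9 were lower and none higher, and AGCAGCA, of miR-15, miR-16 and relatives, by 7 names with 6 lower. AAAGUGC, of miR-17 and miR-20a, had 5 of 6 lower, and AGUGCAA, of miR-130 and miR-301, 4 of 4. AUUGCAC and CUGGACU each had 3 of 4 lower. On the other side GGCGGGG, of miR-663a and miR-1908-5p, had 3 of 4 names higher and 1 lower, so its names were called both ways. Seeds with fewer calls were CUGGGCA and GGGGCGG, each with 1 of 4 higher and none lower, and GGGCUGG, with 2 of 4 lower and none higher. Over all tested names 45.1% were lower and 18.2% higher. Many of these names were already counted in the families above.

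The differences under Ang were set against the same differences in Con. Of 1573 names fitted in both, 1453 had the same sign, and 1222 were called in both with the same sign and 9 with opposite signs, under TMM. These comparisons use separate libraries; across names Spearman's rho was 0.96, as a description. The interaction, which asks whether the difference between exosomes and cells is not the same under Ang and Con, was called for 278 of 1835 names (15.1%): 183 with a higher and 95 with a lower difference under Ang. Library totals gave 93 and 221, so the direction as a whole depended on scaling, with a shift of −0.32 log2 units between the scales.

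miR-3972 was among the names whose difference was larger under Ang on both scales. It stood at 7870.0, 8467 and 8134 CPM in cells Con and 84313, 83199 and 85110.3 CPM in exosomes Con, against 146272, 134456 and 141112 CPM in exosomes Ang, while cells Ang stayed at 8213 to 8876 CPM. The interaction was 1.0 ± 0.094 under TMM (adjusted p = 1.3e-06) and 0.69 by totals. miR-552-3p had exosome values of 84622 to 89005 CPM in Con and 145242 to 155654 CPM in Ang, but its cell values were higher under Ang too (56.7 to 73.1 against 78.0 to 102 CPM), and the interaction of 0.57 (adjusted p = 0.031) was not called by totals (0.25, adjusted p = 0.43). miR-510-3p, of the X-linked cluster, stood at 1298 to 1373 CPM in exosomes Con and 2452 to 2468 CPM in exosomes Ang, and at 21730.4 to 24401 and 15223 to 19172 CPM in cells, with 1.62 ± 0.12 under TMM and 1.30 by totals.

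By the naming rule, the 5 highest interactions were miR-651-5p (2.32 ± 0.69), miR-3668 (1.98), miR-519c-3p (1.85 ± 0.15), miR-10525-3p (1.67) and miR-3614-3p (1.66 ± 0.12). miR-519c-3p of the chromosome 19 cluster stood at 43.7, 49.5 and 52.5 CPM in exosomes Con and 132, 118 and 103 CPM in exosomes Ang, and at 2133 to 2676 CPM in all cell libraries. miR-651-5p rests on few exosome UMIs, and its call did not hold. It was lost by totals (1.96, adjusted p = 0.061), with the replicate block (adjusted p = 0.051), and without cell Ang replicate 2, exosome Con replicate 1 or 3, or exosome Ang replicate 2, where it was 1.58 (adjusted p = 0.32). The 5 lowest were miR-126-3p (−3.52), miR-148a-3p (−3.48), let-7c-5p (−2.72), miR-4699-3p (−2.55 ± 0.13) and miR-3922-5p (−2.15 ± 0.26). miR-4699-3p stood at 1908, 1819 and 1786 CPM in exosomes Con and 379, 399 and 421 CPM in exosomes Ang, while cells went from 101 to 112 up to 164 to 172 CPM. miR-3922-5p stood at 141 to 163 CPM in cells Con and 331 to 385 CPM in cells Ang, and at 23.7 to 28.2 and 8.61 to 12.5 CPM in exosomes. The calls of miR-126-3p, miR-148a-3p and let-7c-5p did not hold either, and none of these 3 was called by limma-voom. Without cell Ang replicate 2, miR-126-3p was at −1.20 and let-7c-5p at −1.90, with no call. miR-126-3p also lost its call without any 1 of the cell Con libraries, exosome Con replicate 2 or 3, or exosome Ang replicate 1 or 3. let-7c-5p lost it without exosome Con replicate 2 or exosome Ang replicate 1. miR-148a-3p lost it in DESeq2 (adjusted p = 0.10), and without exosome Con replicate 2 or 3 or exosome Ang replicate 1 or 3 (adjusted p of 0.059 to 0.088).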

How the data were processed

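The deposited values are whole-number counts of UMIs per mature miRNA name, 1 file per library, raw per the file headers. The submitters' processing notes name cutadapt and the build GRCh38; for aligner, annotation and counter nothing is given in the sources used here. The QIAseq miRNA kit served for library construction, per the labels' protocols. The members and lists were chosen with earlier results of these data known.

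Names absent from the exosome files were set to 0. Names were filtered with filterByExpr and fitted in edgeR 4.0.16 (R 4.3.3), with glmQLFit and glmQLFTest on 3 exosome Ang and 3 cell Ang libraries, under TMM factors and under library totals, with Benjamini-Hochberg adjustment over all tested names and a threshold of 0.05. Arm ratios were tested in limma 3.58.1 and the interaction over all 12 libraries in edgeR. Shares were compared by exact permutation. Standard errors of log2 differences come from the quasi-likelihood F. The differential fits, the interaction and the arm test were tested on simulated data. There all groups shared a mean profile, apart from a set of changed names. The simulation thus lacked the difference in make-up seen between the compartments, so it cannot show how the fits deal with it. Groups come from the sample titles, and depth was 413513 to 1022550 UMIs.

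Named were the 10 highest and 10 lowest differences under TMM with the same call under both scalings, a mean of at least 100 CPM and no overlap; the 10 leading names of each group; the 3 tested members with the lowest p of each list; the 5 arm ratios and 5 interactions furthest in each direction; the 5 most abundant names that turned with scaling; and names with at least 100 UMIs in one group and at most 3 in the other. Sequences are RefSeq's for GRCh38.p14, found for 2367 of 2656 names; none was used for the rest. Host genes are from GENCODE 29. Alternatives were RLE factors, DESeq2 1.42.0, limma-voom, other filters and pseudocounts, thinned counts, a replicate block and each library left out.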

Additional observations from a re-analysis of the deposited data

Results flagged for a closer look

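For 22 of 54 miRNAs named outside the lists and arms, the difference between exosomes and cells was not the same under Ang and Con by the interaction test of edgeR, with Benjamini-Hochberg adjustment. Of these, 10 were named for the size of their interaction, and among the other 44 the test called 12 (27.3%), beside 15.1% of all names tested. Those 44 were chosen by level or difference in the same Ang libraries that enter the interaction. Their share therefore cannot be read as an excess over that of all names. Values are log2 under TMM, Ang minus Con. Among the leading and most raised names of exosomes the difference was larger under Ang for miR-3972 (1.0), miR-6126 (0.73), miR-3907 (0.64) and miR-552-3p (0.57), and smaller for miR-3944-5p (−0.39) and miR-1237-5p (−0.35). Among the leading names of cells it was 1.62 for miR-510-3p, 0.65 for miR-6893-5p, 0.63 for miR-1231 and −0.80 for miR-10400-5p, and among names that turned with scaling −0.58 for miR-4800-3p and 0.50 for miR-4771. The furthest values upward were 2.32 for miR-651-5p, 1.98 for miR-3668, 1.85 for miR-519c-3p, 1.67 for miR-10525-3p and 1.66 for miR-3614-3p. Downward they were −3.52 for miR-126-3p, −3.48 for miR-148a-3p, −2.72 for let-7c-5p, −2.55 for miR-4699-3p and −2.15 for miR-3922-5p. Under other settings or without single libraries miR-651-5p, miR-126-3p, miR-148a-3p and let-7c-5p lost their calls. With library totals the median shift of these values over all names was −0.32, and miR-552-3p was not called. The smaller upward values therefore rest in part on the scaling.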

How the results depend on the processing

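The split of calls depends on scaling. Library totals gave 296 higher and 1173 lower names in place of 621 and 734, and totals without miR-552-3p and miR-3972 gave 385 higher; the interaction gave 93 higher and 221 lower by totals in place of 183 and 95. By totals the sign turned for miR-1231 (−0.36), miR-6893-5p (−0.43), miR-10400-5p (−0.55), miR-125b-1-3p (−0.28), miR-125a-3p (−0.46), miR-181c-5p (−0.054), miR-214-3p (−0.23), miR-143-5p (−1.58), miR-375-5p (−0.74), miR-371a-3p (−0.081), miR-320a-5p (−0.89), miR-320d (−1.38), miR-1260a (−0.39), miR-509-3-5p (−0.60) and miR-3614-3p (−0.67). By totals without the 2 leading names it turned for miR-10400-5p (−0.069), miR-143-5p (−1.10), miR-375-5p (−0.26), miR-320a-5p (−0.41), miR-320d (−0.90), miR-509-3-5p (−0.11) and miR-3614-3p (−0.18). Arm calls numbered 84 (35 toward 5p, 49 toward 3p) at 50 UMIs per arm, where fewer hairpins are tested, and 419 (199 and 220) at 2 UMIs. Without miR-552-3p and miR-3972 the 8 remaining leading names of exosomes took 23.1%, 10 names chosen again (added after the data were seen) 26.7%, and 5p names 28.7%. The GC gap of 17.6 percentage points was 22.4 at 4-fold and 18.8 at 100 CPM. Leaving out each library gave 1300.0 to 1417 calls, 225 to 261 arm calls and 218 to 286 interactions, and miR-126-3p ranged from −2.44 to 0.55. Whether replicate numbers pair the samples was not settled. Correlations of same-numbered exosome and cell libraries were 0.07, 0.07 and −0.02, and those of differently numbered ones −0.10 to 0.05. The replicate block gave 1345, 259 and 252 calls. With that block edgeR's test still called miR-126-3p (−1.16, adjusted p = 4.6e-06) and let-7c-5p (−0.84, adjusted p = 0.00022) lower in exosomes under TMM. The cause of these changes was not tested. With 3 UMIs worth 2.93 to 7.25 CPM, differences among names below that level were not detectable.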
